A study of Mus musculus with 9 samples.

Results

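The activation of *Mct1*-deficient B cells by lipopolysaccharide (LPS) and interleukin-4 (IL-4) was followed by RNA sequencing in 5 of the 9 libraries of the series. The 5 libraries came from primary splenic B cells of *Mct1*f/f*Mb1*Cre mice, with 2 libraries on day 0, before any stimulus, and 3 libraries on day 3, after culture with LPS at 10 μg/ml together with IL-4 at 50 ng/ml. These mice carry 2 floxed *Mct1* alleles and the *Mb1*-Cre allele, which expresses Cre recombinase from the *Mb1* (*Cd79a*) locus in the B cell lineage, and the Cre of this allele is not directed at other spleen cells. The other 4 libraries came from B cells of *Mb1*Cre control mice, which carry the same Cre allele without the floxed *Mct1* alleles, with 2 libraries on each day under the same treatment. The mice were on the C57BL/6J background and were 6 to 8 weeks old. The labels name no mouse or pool for any library, so the errors given here measure the spread between libraries, which may be technical. The days were compared in every gene whose level averaged 1 FPKM or more across the 9 libraries, which were 10823 of the 17596 genes in the table. *Coro2b*, with a mean of 0.999 FPKM, was the gene just outside this limit.

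LPS is sensed by B cells through Toll-like receptor 4 and its co-receptors, which signal through the adaptors MyD88 and TRIF to NF-κB and interferon regulatory factors. IL-4 binds a receptor of the IL-4Rα chain and the common γ chain, whose Janus kinases activate the transcription factor STAT6. Together these signals drive resting B cells to grow, to divide and to switch the constant region of the immunoglobulin heavy chain. MCT1, the product of *Slc16a1*, carries lactate, pyruvate and other monocarboxylates together with protons across the plasma membrane, and activated lymphocytes are known for a high rate of glycolysis. Immunoglobulin genes were not analysed here.

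The values are fragments per kilobase of transcript per 1000000 mapped fragments (FPKM), a level scaled to gene length, so the read depth of each library is unknown. The day 0 libraries summed to 482112 and 491459 FPKM and the day 3 libraries to between 547355 and 557679 FPKM. Across genes, Pearson's r on the log2(FPKM + 1) scale was 0.9948 between the day 0 libraries, 0.9977 to 0.9982 among the day 3 libraries and 0.812 to 0.829 between the days. Genes at 1 FPKM or more numbered 11036 and 10951 on day 0 and 10201 to 10219 on day 3. The Y-linked gene *Ddx3y* was at 31.1 and 0.20 FPKM in the day 0 libraries and at 15.4 to 16.9 FPKM in the day 3 libraries. The Y-linked genes *Eif2s3y* (59.6 and 0.58 FPKM), *Kdm5d* (11.8 and 0.11 FPKM) and *Uty* (9.9 and 2.66 FPKM) were split in the same way. On day 3 they were at 44.6 to 49.9, 6.39 to 7.19 and 6.78 to 7.38 FPKM, respectively. The day 0 libraries thus stood apart from each other in these Y-linked genes, and the part of this in the changes between days was not tested.

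The labelled cell type was checked against 8 B cell markers. All 8 were present on both days, with a summed level of 4415 and 4755 FPKM on day 0 and of 2218 to 2309 FPKM on day 3. Markers of other spleen cells were also present on day 0. Here and below, a gene rose or fell if its adjusted p from limma was under 0.05 and its change exceeded 0.5 on the log2(FPKM + 1) scale, a rule by which 23.4% of all tested genes rose and 33.2% fell. The 10 markers of monocytes and macrophages summed to 1579 and 1351 FPKM on day 0 and to 72.0 to 79.1 FPKM on day 3, and 10 of 10 fell. The 10 neutrophil markers summed to 1484 and 534 FPKM on day 0 and to 2.77 to 7.95 FPKM on day 3, with *Retnlg* listed at 0 in all day 3 libraries. The library with 1484 FPKM was that with the higher *Ddx3y*. Of 7 tested T cell markers 7 fell, from 40.5 and 39.1 FPKM in sum to 3.20 to 3.61 FPKM, and *Cd3e*, part of the T cell receptor complex, was at 0.00 to 0.07 FPKM on day 3. The 5 tested erythroid markers and the 5 dendritic cell markers fell as well. The 6 natural killer (NK) cell markers kept a summed level of 94.4 to 95.1 FPKM on day 0 and 93.5 to 102 FPKM on day 3. Of these markers 4 fell and 1 rose, with a median log2 change of -1.98. The one that rose was *Gzma*, which encodes the protease granzyme A, from 35.4 and 39.5 FPKM to 79.5 to 87.0 FPKM. The defining NK cell receptor *Ncr1* went from 7.16 and 7.37 FPKM to 0.53 to 0.68 FPKM, and *Klrd1*, the CD94 receptor chain, from 17.95 and 15.39 FPKM to 0.49 to 0.67 FPKM. Of 2 tested platelet markers 1 fell. In such bulk libraries, fewer cells of a type and less RNA per cell cannot be told apart.

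**Figure D1:**
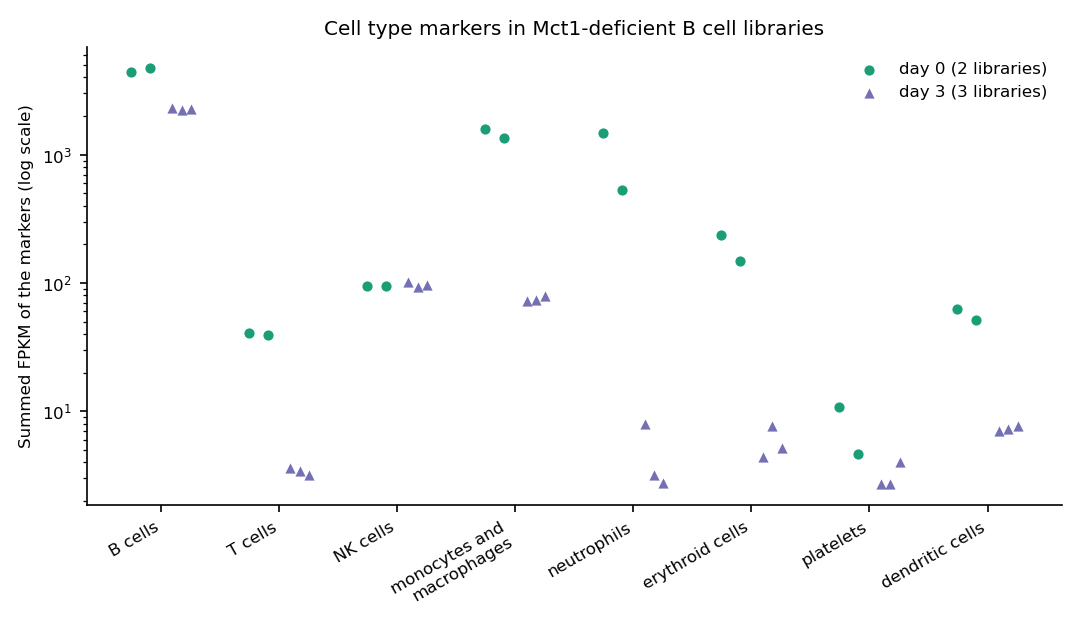
Summed FPKM of the markers of 8 cell types (log axis) in the 2 day 0 libraries (circles) and the 3 day 3 libraries (triangles) of *Mct1*-deficient B cells. B cell markers stayed above 2218 FPKM, while the sums for monocytes and macrophages and for neutrophils were between 534 and 1579 FPKM on day 0 and at most 79.1 FPKM on day 3.

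*Slc16a1*, the targeted gene, was present in both genotypes. It had 3.71 and 4.06 FPKM in the day 0 libraries and 10.82, 9.81 and 9.50 FPKM in the day 3 libraries of *Mct1*-deficient cells. The days did not overlap, and transcripts assigned to the gene were present in every library of the deficient genotype. The gene rose by 1.18 on the log2 scale (standard error 0.07, limma adjusted p = 2.95e-08), and the exact two-sided permutation test gave p = 0.1, the smallest that 3 libraries against 2 allow. In control cells *Slc16a1* went from 4.33 and 3.80 FPKM to 22.58 and 22.95 FPKM, a log2 change of 2.23. The response in deficient cells was smaller by 1.06 on the log2 scale (interaction contrast -1.06, standard error 0.11, adjusted p = 4.24e-04). On day 0 the deficient and control libraries overlapped, so the day 0 level did not tell the genotypes apart. The floxed segment lies between exon 1 and intron 3, and FPKM over the whole gene do not separate deleted from intact transcripts.

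Of 10 tested genes for monocarboxylate transport, 4 rose and 3 fell, next to 23.4% and 33.2% of all tested genes, with a median log2 change of 0.07 that turned to -0.10 when libraries were scaled to the same total. *Slc16a3*, which encodes the lactate exporter MCT4, had 4.95 and 4.31 FPKM on day 0 against 25.53, 26.34 and 20.81 FPKM on day 3. It rose by 2.16 on the log2 scale (adjusted p = 9.51e-09), the largest rise in the list. *Slc16a7*, which encodes MCT2, fell from 3.72 and 3.40 FPKM to 0.62 to 0.76 FPKM. *Slc16a10*, a carrier of aromatic amino acids, fell from 6.35 and 6.19 FPKM to 2.42 to 2.68 FPKM. All 3 day 3 libraries lay on the same side of both day 0 libraries for each of these genes, as in 89.8% of all tested genes.

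Across all genes the day 3 cells differed widely from the day 0 cells. The log2(FPKM + 1) scale understates the change of genes with low values. By the rule given above 2532 genes rose (23.4% of those tested) and 3588 fell (33.2%), so 6120 were called in either direction (56.5%). The libraries of the days did not overlap in 9718 genes (89.8%), and 6118 of the called genes were among them. The median log2 change was -0.14, with quartiles of -0.70 and 0.46. Changes above 2 on the log2 scale were seen in 297 rises and 558 falls, and changes above 4 in 12 rises and 70 falls. The balance of rises and falls depended on the scaling of the libraries. Rises were 41.4% of the called genes in the deposited values, 31.7% after scaling to the same total, 54.9% after median-of-ratios scaling and 51.7% after quantile normalization. These scalings moved the median of all genes to -0.30, 0.06 and 0.03, respectively, so the medians of gene lists below are read against the median of -0.14.

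**Figure D2:**
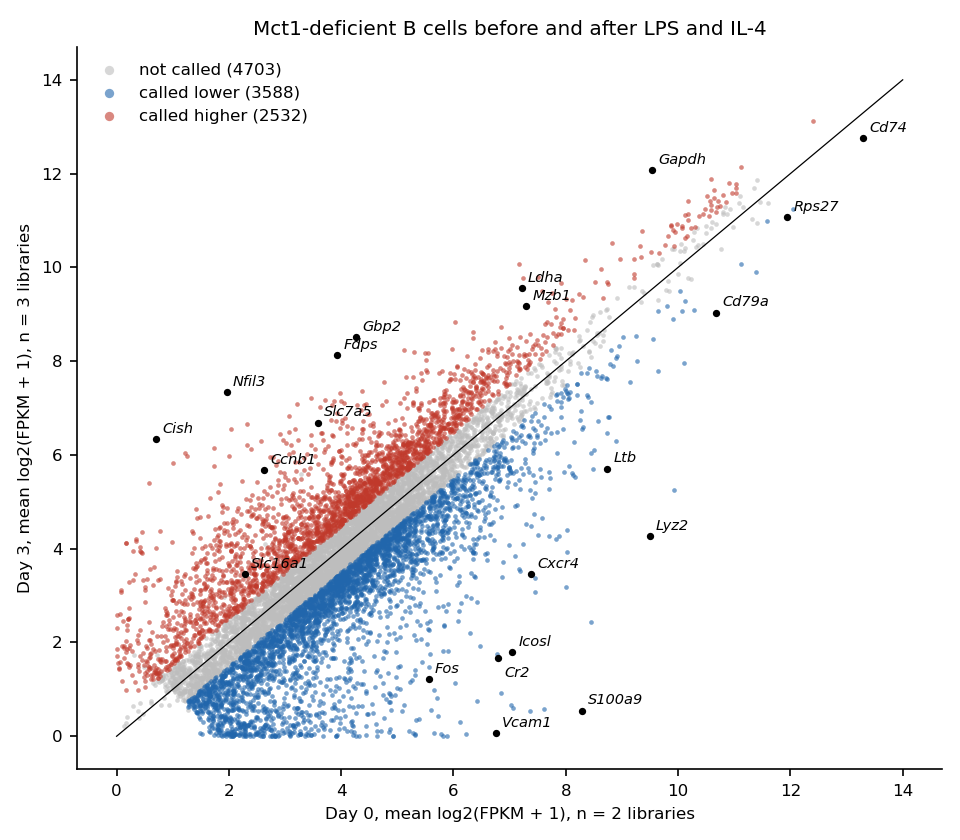
Mean log2(FPKM + 1) of each tested gene in *Mct1*-deficient B cells on day 0 (x axis, 2 libraries) and day 3 (y axis, 3 libraries), with genes called higher in red and lower in blue. The diagonal marks equal levels, and 2532 genes lie above it and 3588 below it as called genes.

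The largest rises belonged to regulators of cytokine signalling, to metabolic enzymes and to immune effectors. *Cish*, a suppressor of cytokine signalling that is itself a STAT target, had 0.48 and 0.80 FPKM on day 0 against 75.5, 83.1 and 82.3 FPKM on day 3. It showed the largest rise of all, 5.64 on the log2 scale (standard error 0.08, adjusted p = 1.38e-12). *Nfil3*, a basic leucine zipper factor induced by IL-4, had 3.34 and 2.48 FPKM on day 0 and 158 to 164 FPKM on day 3, a log2 change of 5.38. Both genes were chosen among genes whose days did not overlap, so their separation is no added result. The 3 day 3 libraries were close to each other in both.

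Among the 10 largest rises were also *Lad1* (ladinin, log2 change 4.83), *Timd2* (a receptor of the TIM family, 4.81), *Fads2* (a fatty acid desaturase, 4.74), *Asns* (asparagine synthetase, 4.52), *Gzmb* (granzyme B, 4.41), *Zbtb32* (a zinc finger repressor, 4.34) and *Gbp2* (an interferon-induced GTPase, 4.24). *Asns* had 2.58 and 3.66 FPKM on day 0 against 82.7, 94.0 and 102 FPKM on day 3. *Gbp2* started from a higher level, 19.0 and 17.6 FPKM, and reached 360 to 370 FPKM.

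Most of the 10 largest falls were those of genes known in other spleen cells. *S100a9*, a calcium-binding protein of neutrophils, had 514 and 188 FPKM on day 0 against 1.80, 0.00 and 0.11 FPKM on day 3 (log2 change -7.74, standard error 0.45, adjusted p = 2.20e-08). *S100a8* and *Ngp*, also neutrophil genes, and *C1qa*, *C1qb* and *C1qc*, the complement chains made by macrophages, fell by 5.92 to 7.04 on the log2 scale. *Vcam1*, an adhesion molecule, fell from 115 and 98.7 FPKM to 0.03 to 0.07 FPKM. *Hba-a1*, an α-globin gene, fell from 82.2 and 66.4 FPKM to 0.00 to 0.10 FPKM, and reads of α-globin copies can be split between them. All genes named in this paragraph but *Vcam1* are among the markers summed above, so those sums fell with them by construction. The part of other spleen cells in these falls was not tested.

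Outside the marker lists and among genes that averaged 10 FPKM or more in the 5 libraries, the 10 largest falls were those of *Vcam1*, *Apoe*, *Fcna*, *Trf*, *Slc40a1*, *Car1*, *Rgs2*, *Ifitm6*, *Icosl* and *Cr2*. *Apoe* (apolipoprotein E) had 374 and 326 FPKM on day 0 against 3.42, 4.81 and 5.22 FPKM on day 3. *Fcna*, which encodes ficolin A, had 57.7 and 58.8 FPKM on day 0 and was listed at 0 in all day 3 libraries. *Slc40a1*, the iron exporter ferroportin, had 51.4 and 56.7 FPKM on day 0 and 0.02 to 0.03 FPKM on day 3. The last 2 genes of the group are known in B cells themselves. *Icosl*, the ligand of the T cell co-stimulator ICOS, fell from 132 and 129 FPKM to 2.35 to 2.56 FPKM (log2 change -5.25). *Cr2*, the complement receptor CD21, fell from 109 and 110 FPKM to 1.97 to 2.29 FPKM (log2 change -5.12, adjusted p = 3.94e-12).

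**Figure D3:**
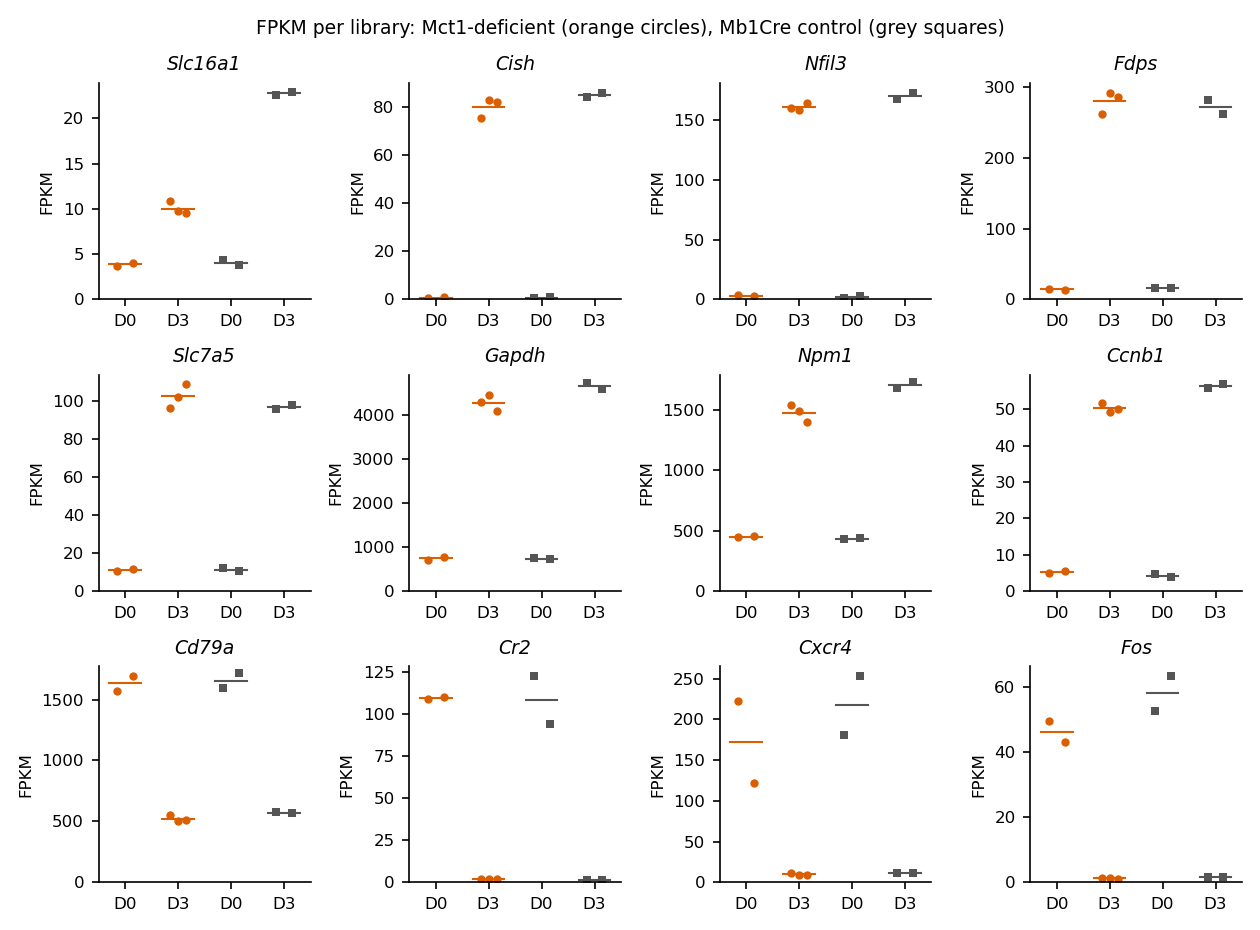
FPKM of 12 genes in every library, with *Mct1*-deficient libraries as orange circles and *Mb1*Cre libraries as grey squares on day 0 (D0) and day 3 (D3); horizontal lines are group means. *Slc16a1* reached 9.50 to 10.82 FPKM in deficient cells and 22.58 to 22.95 FPKM in control cells, and *Cd79a*, *Cr2*, *Cxcr4* and *Fos* are the panels in which day 3 lies below day 0.

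Of 12 tested genes that sense LPS, 2 rose and 5 fell, next to 23.4% and 33.2% of all tested genes, and the median log2 change was -0.19, which became 0.02 under median-of-ratios scaling. *Tlr4*, the LPS receptor, had 5.41 and 4.69 FPKM on day 0 and 1.87 to 2.00 FPKM on day 3. The co-receptor *Cd14*, which monocytes also express, fell from 9.20 and 9.33 FPKM to 0.74 to 1.09 FPKM, and monocyte markers fell with it. The genes that rose were the adaptors *Ticam2* (TRAM), from 6.23 and 5.78 FPKM to 18.9 to 19.9 FPKM, and *Ticam1* (TRIF), from 17.3 and 16.6 FPKM to 29.7 to 32.8 FPKM.

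NF-κB genes were partly higher. Of 13 members 5 rose and 1 fell (median log2 change 0.25), but 4 fell when libraries were scaled to the same total, 3 under quantile normalization and 2 without day 3 library 3. *Nfkb1*, which encodes the p105 precursor of p50, rose from 88.2 and 89.5 FPKM to 192, 200.4 and 196 FPKM. *Tnfaip3*, the inhibitor A20, rose by 1.62 on the log2 scale and *Traf1*, an NF-κB target and signal adaptor, by 1.75. *Nfkbid*, an atypical nuclear IκB protein, fell from 66.9 and 65.3 FPKM to 12.3 to 13.6 FPKM (log2 change -2.27, adjusted p = 3.09e-11).

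The IL-4 pathway held *Cish* and *Nfil3*, the genes with the largest rises of all. Of 14 members 8 rose and 4 fell, with a median log2 change of 0.83, 0.97 above that of all genes. *Il4ra*, the receptor chain, had 68.7 and 71.0 FPKM on day 0 against 216, 199 and 211 FPKM on day 3 (log2 change 1.56). Fallen members were *Il13ra1*, the chain of the alternative receptor, from 7.26 and 5.57 FPKM to 0.20 to 0.49 FPKM, the kinases *Tyk2* and *Jak1* and the factor *Stat6* itself, with log2 changes of -2.44, -0.97, -0.90 and -0.84. *Jak1* and *Stat6* are named to complete this count and were chosen after their values were seen.

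Surface receptors of activation and secreted factors split into both directions. Of 13 activation receptors 6 rose and 2 fell (median log2 change 0.45). *Il2ra*, the high-affinity chain of the IL-2 receptor, had 2.69 and 3.11 FPKM on day 0 against 27.1, 29.2 and 28.3 FPKM on day 3. The death receptor *Fas* rose from 3.46 and 4.16 FPKM to 18.4 to 19.4 FPKM, and *Cd69*, an early activation antigen, from 37.0 and 28.5 FPKM to 54.6 to 58.6 FPKM. The receptors that fell were *Icosl* and *Cd38*, an ectoenzyme, which went from 91.9 and 92.7 FPKM to 17.2 to 19.1 FPKM. Of 14 cytokine and chemokine genes 5 rose and 6 fell, next to 23.4% and 33.2% of all tested genes. Their median log2 change of -0.27 turned to 0.06 under quantile normalization. *Ebi3*, a subunit of IL-27 and IL-35, rose from 26.7 and 24.3 FPKM to 128, 138 and 134 FPKM. *Il6* rose from 0.16 and 0.11 FPKM to 3.58 to 4.13 FPKM. *Ltb*, lymphotoxin β, fell from 414 and 437 FPKM to 50.8 to 52.2 FPKM (log2 change -3.02). *Il1b* fell from 21.0 and 18.9 FPKM to 1.07 to 1.35 FPKM, alongside the markers of monocytes.

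Genes of class switch recombination rose in part. Of 34 members 14 rose, 3 fell and 17 were not called, with a median log2 change of 0.30, 0.44 above that of all genes. *Ercc6l2*, which takes part in end joining of switch breaks, had 6.19 and 5.68 FPKM on day 0 against 61.1, 61.6 and 59.9 FPKM on day 3 (log2 change 3.16, adjusted p = 1.11e-11). *Hmces*, which shields abasic sites in DNA, went the other way, from 16.5 and 17.9 FPKM to 2.05 to 2.17 FPKM. *Shld1*, a shieldin subunit, fell from 6.47 and 5.26 FPKM to 2.57 to 3.27 FPKM and was not called under quantile normalization or with a pseudocount of 5 (log2 change -0.44 in both).

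Of 17 B cell transcription factors 10 fell and 7 were not called, and the median log2 change was -0.81. *Ets1* fell from 211 and 205 FPKM to 36.5 to 38.7 FPKM, *Spib* from 403 and 469 FPKM to 108 to 117 FPKM, and *Pax5*, the commitment factor of the lineage, from 150 and 151 FPKM to 94.6 to 98.7 FPKM. *Pax5* was not called under median-of-ratios scaling (log2 change -0.42). The count of risen members was 0 in the deposited values (3 at an unadjusted p under 0.05 from limma), 1 without day 0 library 1 or without day 3 library 2, and 2 under median-of-ratios scaling.

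Of 20 signalling genes of the B cell receptor 14 fell (median log2 change -0.66), and 9 of 20 under median-of-ratios scaling. *Syk*, the proximal kinase, fell from 294 and 281 FPKM to 43.5 to 46.4 FPKM. *Cd79a*, which encodes the signalling chain Igα and whose locus carries the Cre allele, fell from 1573 and 1697 FPKM to 557, 502 and 512 FPKM (log2 change -1.64, adjusted p = 3.36e-10). *Blk*, a Src family kinase of B cells, fell from 177 and 184 FPKM to 18.1 to 19.4 FPKM. Among the 8 B cell markers 7 fell.

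Of 18 homing and quiescence genes 17 fell, with a median log2 change of -1.58. *Klf2*, a factor that holds lymphocytes in quiescence, fell from 423 and 425 FPKM to 84.3, 89.8 and 89.9 FPKM. *Cxcr4*, the receptor of the chemokine CXCL12, fell from 222 and 123 FPKM to 9.37 to 11.2 FPKM, and *Tsc22d3*, a glucocorticoid-induced gene, from 231 and 131 FPKM to 7.22 to 7.66 FPKM. For both genes day 0 library 1 held the higher level, and this was also the library with more neutrophil markers (1484 FPKM in sum). Control day 0 library 2 had still more *Cxcr4* (253 FPKM) and *Tsc22d3* (269 FPKM) at a neutrophil sum of 668 FPKM. Control day 0 library 1 had 181 and 209 FPKM at a sum of 477 FPKM, and a link was not tested. Of 16 immediate early genes 10 fell and 3 rose (median log2 change -1.62). *Fos* fell from 49.4 and 43.1 FPKM to 1.16 to 1.48 FPKM, whereas *Atf3*, a stress-induced factor, rose from 2.38 and 1.80 FPKM to 23.6, 25.7 and 25.3 FPKM.

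Plasma cell genes rose in 7 of 11 tested members and fell in 2 (median log2 change 1.39). *Prdm1*, which encodes the plasma cell regulator BLIMP1, had 2.23 and 1.76 FPKM on day 0 against 9.34, 10.0 and 9.85 FPKM on day 3. *Mzb1*, a chaperone for immunoglobulin, rose from 157 and 155 FPKM to 574 to 582 FPKM. The plasma cell surface marker *Sdc1* (CD138) fell from 5.75 and 6.56 FPKM to 2.65 to 3.21 FPKM. *Jchain*, the joining chain of secreted IgM and IgA, went from 160 and 117 FPKM to 98.1, 85.6 and 78.6 FPKM, a fall of 0.65 on the log2 scale that was not called without day 0 library 1 or under median-of-ratios scaling (log2 change -0.43 in both). MHC class II genes fell in 6 of 11 members (median log2 change -0.54), led by the DO chains *H2-Ob* and *H2-Oa*, which modulate peptide loading. *Cd74*, the invariant chain, remained among the genes with the highest level in the table, with 9829 and 10290 FPKM on day 0 and 6846 to 6997 FPKM on day 3.

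**Figure D4:**
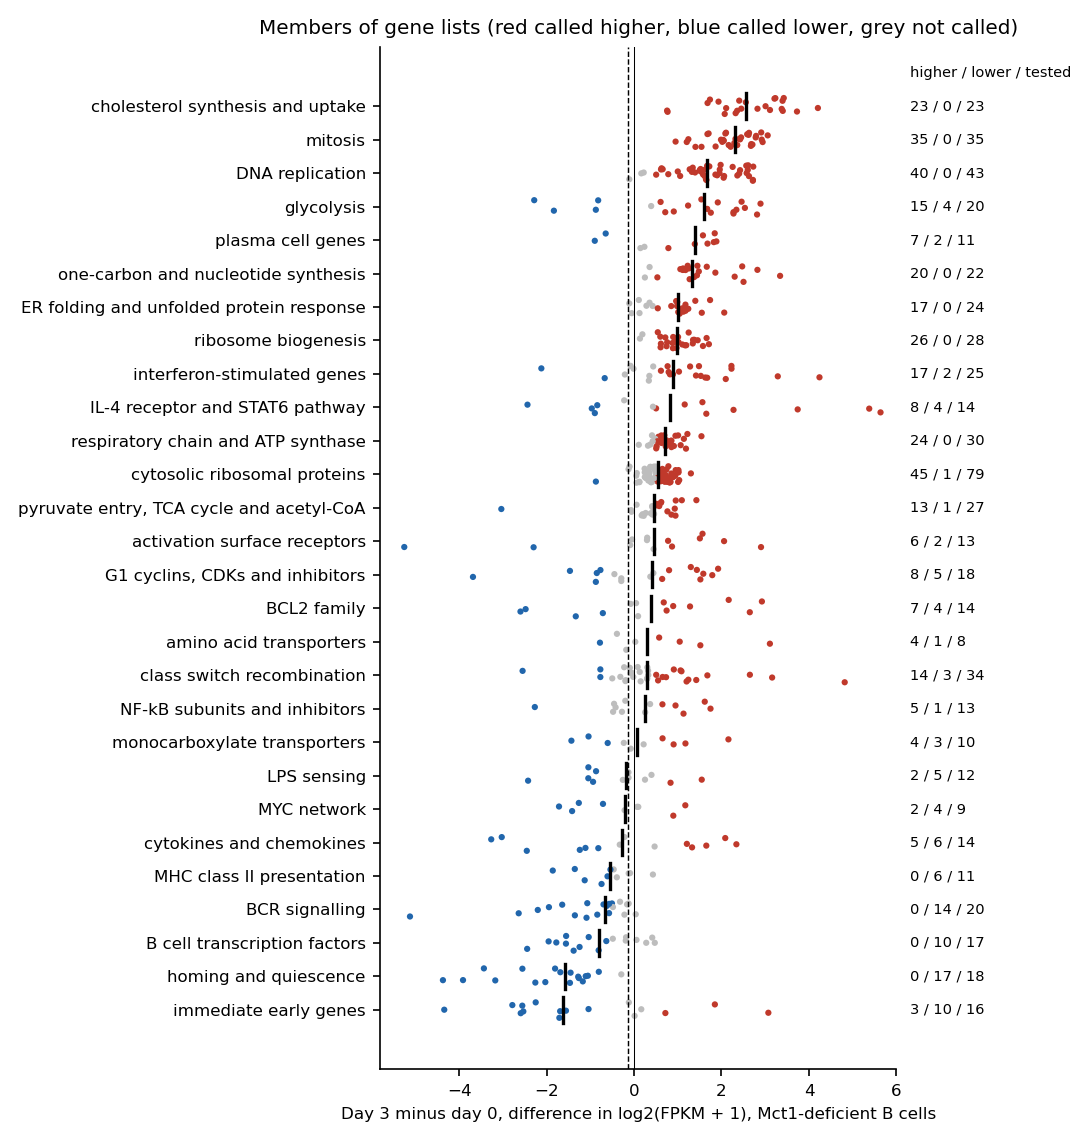
Change of every tested member of the gene lists in *Mct1*-deficient B cells (x axis, day 3 minus day 0 in log2(FPKM + 1)), with members called higher in red, lower in blue and not called in grey. Black bars are list medians, the dashed line is the median of all genes (-0.14), and the medians run from 2.56 for cholesterol synthesis to -1.62 for immediate early genes; the medians of monocarboxylate transporters, LPS sensing and cytokines change sign under another scaling.

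*Myc*, the growth regulator, had 66.7 and 58.5 FPKM on day 0 against 114, 122 and 116 FPKM on day 3 (log2 change 0.90, adjusted p = 1.13e-07). Within its network 2 of 9 tested genes rose and 4 fell, next to 23.4% and 33.2% of all tested genes. The antagonists *Mxd4* and *Mxd1* were among those that fell, by 1.72 and 1.42 on the log2 scale. In contrast, *Mxd3* rose by 1.17, from 2.84 and 3.71 FPKM to 8.12 to 9.54 FPKM, the largest rise in the list. Of 28 ribosome biogenesis genes 26 rose, with a median log2 change of 0.97. *Npm1*, a nucleolar chaperone, had 444 and 457 FPKM on day 0 against 1546, 1493 and 1399 FPKM on day 3, and *Ncl*, nucleolin, rose from 105 and 108 FPKM to 325 to 345 FPKM.

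The 79 tested cytosolic ribosomal protein genes took 20.5% and 21.6% of the summed FPKM on day 0 and 26.5% to 27.6% on day 3. Of these genes 45 rose and 1 fell, with a median log2 change of 0.54. The count of rises was 27 after scaling to the same total, 15 after quantile normalization and 66 under median-of-ratios scaling. *Rps2* rose from 1488 and 1598 FPKM to 3670 to 3913 FPKM. *Rps27* was the member that fell, from 3833 and 4041 FPKM to 2044 to 2334 FPKM. Ribosomal protein genes have many processed copies, which can share reads. Of 8 amino acid transporters 4 rose and 1 fell. *Slc7a5*, the large neutral amino acid carrier LAT1, had 10.5 and 11.4 FPKM on day 0 against 96.0, 102 and 109 FPKM on day 3 (log2 change 3.11, adjusted p = 9.42e-12).

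Glycolytic genes were higher. Of 20 members 15 rose and 4 fell, with a median log2 change of 1.61, 1.75 above that of all genes, and the summed level went from 1957 and 1988 FPKM to 8748 to 9362 FPKM. *Gapdh* had 715 and 763 FPKM on day 0 against 4307, 4460 and 4104 FPKM on day 3, which placed it among the 5 genes with the highest mean on day 3. *Tpi1*, triosephosphate isomerase, rose from 38.1 and 38.4 FPKM to 281 to 303 FPKM, the largest rise in the list (log2 change 2.89). *Hk2*, an inducible hexokinase, rose from 4.39 and 4.02 FPKM to 15.3, 15.7 and 15.8 FPKM. *Ldha*, the lactate dehydrogenase chain that favours lactate formation, rose from 145 and 151 FPKM to 726 to 772 FPKM, and *Pkm* from 185 and 178 FPKM to 853 to 898 FPKM. *Ldhb*, the other lactate dehydrogenase chain, fell from 2.5 and 3.02 FPKM to 0.04 to 0.08 FPKM. *Hk3*, a hexokinase of myeloid cells, fell from 8.39 and 5.66 FPKM to 0.42 to 0.79 FPKM, together with the myeloid markers.

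Mitochondrial genes rose by less. In the list of pyruvate entry, the tricarboxylic acid cycle and acetyl-CoA, 13 of 27 rose and 1 fell (median log2 change 0.46). After scaling to the same total 7 rose, and under median-of-ratios scaling 19 rose. *Pdk3*, an inhibitory kinase of pyruvate dehydrogenase, rose from 12.2 and 13.4 FPKM to 35.6 to 36.6 FPKM. *Pdha1*, a subunit of pyruvate dehydrogenase, went from 30.6 and 29.9 FPKM to 40.9 to 42.9 FPKM, a log2 change of 0.46 under the limit of 0.5. *Acss1*, the mitochondrial acetyl-CoA synthetase, fell from 41.5 and 41.0 FPKM to 3.98 to 4.46 FPKM (log2 change -3.03). Of 30 genes of the respiratory chain and ATP synthase 24 rose (median log2 change 0.71), led by *Uqcrq*, a complex III subunit, from 19.8 and 22.1 FPKM to 53.6 to 68.2 FPKM. In this list 16 rose after scaling to the same total, 19 after quantile normalization and 29 under median-of-ratios scaling. *Ndufs1*, a complex I subunit, had 22.4 and 23.9 FPKM on day 0 and 24.4 to 26.1 FPKM on day 3 and was not called. The genes of mitochondrial fusion *Mfn1*, *Mfn2* and *Opa1* had log2 changes of 0.17, 0.07 and 0.34 and were not called either, although *Opa1* passed the limit under median-of-ratios scaling (0.54) and quantile normalization (0.52).

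Biosynthetic genes showed larger changes. Of 22 genes of one-carbon metabolism and nucleotide synthesis 20 rose, with a median log2 change of 1.32. *Psat1*, of the serine pathway, had 14.6 and 15.1 FPKM on day 0 against 152, 163 and 163 FPKM on day 3 (log2 change 3.34, adjusted p = 1.74e-12). *Mthfd2*, a mitochondrial folate enzyme, rose from 11.2 and 11.8 FPKM to 83.8 to 90.7 FPKM. *Phgdh*, the entry enzyme of serine synthesis, rose from 43.8 and 44.9 FPKM to 208 to 234 FPKM. In the list of cholesterol synthesis and uptake 23 of 23 members rose, with a median log2 change of 2.56, and their summed level went from 266 FPKM in each day 0 library to 1618 to 1635 FPKM. *Fdps*, farnesyl diphosphate synthase, had 15.1 and 13.5 FPKM on day 0 against 262, 292 and 287 FPKM on day 3, a log2 change of 4.2 (adjusted p = 1.29e-12). *Sqle*, squalene epoxidase, rose from 4.86 and 4.96 FPKM to 75.7 to 79.5 FPKM. *Hmgcs1*, which forms the HMG-CoA used by the pathway, rose from 13.2 and 13.5 FPKM to 131 to 138 FPKM.

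Of 43 DNA replication genes 40 rose, with a median log2 change of 1.66, and all 35 mitosis genes rose, with a median of 2.31. *Gins2*, of the replicative helicase, rose from 4.06 and 4.57 FPKM to 33.3 to 35.6 FPKM. *Uhrf1*, which passes on DNA methylation at the replication fork, had 14.5 and 15.9 FPKM on day 0 against 107, 103 and 107 FPKM on day 3 (log2 change 2.72). *Mcm2*, a helicase subunit, rose from 20.8 and 23.5 FPKM to 62.8 to 67.6 FPKM. *Ccnb1*, cyclin B1, had 4.88 and 5.47 FPKM on day 0 against 51.7, 49.3 and 50.1 FPKM on day 3, the largest rise among mitosis genes (log2 change 3.06, adjusted p = 1.28e-11). The kinase *Plk1* rose from 7.21 and 7.61 FPKM to 61.7 to 66.0 FPKM, and the proliferation marker *Mki67* from 15.2 and 17.3 FPKM to 70.5 to 76.2 FPKM.

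Regulators of the G1 phase moved apart. Of 18 tested members 8 rose and 5 fell, next to 23.4% and 33.2% of all tested genes. Among D-type cyclins, *Ccnd2* rose from 28.1 and 32.0 FPKM to 105 to 107 FPKM, and *Ccnd1* fell from 15.2 and 14.2 FPKM to 0.18 to 0.25 FPKM (log2 change -3.68). Among inhibitors, *Cdkn1b* (p27) fell from 72.2 and 75.2 FPKM to 23.1 to 28.1 FPKM, and *Cdkn1a* (p21) rose from 4.22 and 3.81 FPKM to 17.5 to 18.6 FPKM. Each of these genes had its day 3 libraries apart from its day 0 libraries, as had 89.8% of all tested genes.

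Promoter sequences of these gene groups were read from the RefSeq promoter table of GRCm38.p6, over 250 bases before each start site and on both strands. Promoters were found for 8790 of the 10823 tested genes, 35 of 43 replication genes, 29 of 35 mitosis genes and 16 of 23 cholesterol genes. The CCAAT box (CCAAT) was present in 61.0% of the replication promoters, 76.7% of the mitosis promoters and 84.2% of the cholesterol promoters, against 36.2% of the promoters of all tested genes. In the other lists searched it was present in 22.6% of ribosome biogenesis, 43.8% of homing and quiescence and 50.0% of IL-4 promoters. The E2F core (GCGGGAA) was present in 26.8% of the replication promoters, in 0 of 30 mitosis promoters and in 6.90% of those of all tested genes. The CHR element (TTTGAA) was present in 40.0% of the mitosis promoters against 11.3%. Among all genes that rose and all genes that fell, the E2F core was present in 9.20% and 5.45% and the CCAAT box in 40.7% and 33.7%. TTC and GAA with 4 bases between them (TTCNNNNGAA), the spacing of STAT6 sites, were present in 5.81% of the promoters of risen genes, 4.52% of those of fallen genes and 1 of 16 promoters of the IL-4 list. The E-box (CACGTG) was present in 9.48% and 7.75% of the promoters of risen and fallen genes. Over all 32851 promoters in the table the shares were 3.82% for the E2F core, 33.8% for the CCAAT box, 16% for the CHR, 6.02% for the E-box and 5.85% for the STAT6 spacing. Such matches describe letters in the window and are no evidence of binding.

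The 150 bases before the start site are shown for a leading replication gene (*Uhrf1*, the upstream of its 2 starts), for both leading mitosis genes, and for *Hmgcs1* as a cholesterol gene, because they hold the motifs counted above. Capitals mark every match to the motifs named here, the CCAAT box in all 4 (as ATTGG where it is on the other strand), the E2F core in *Uhrf1* (as TTCCCGC) and a sterol element (TCACNCCAC) in *Hmgcs1*. The sterol element was searched after values were seen. It was present in 1 of 19 cholesterol promoters, the *Hmgcs1* promoter shown here, and in 0.941% of those of all tested genes.
Uhrf1, GRCm38.p6 chr17:56303187-56303336, plus strand: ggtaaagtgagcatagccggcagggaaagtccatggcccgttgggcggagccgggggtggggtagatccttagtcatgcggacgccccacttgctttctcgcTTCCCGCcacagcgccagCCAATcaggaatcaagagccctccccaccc
Ccnb1, GRCm38.p6 chr13:100786487-100786636, minus strand: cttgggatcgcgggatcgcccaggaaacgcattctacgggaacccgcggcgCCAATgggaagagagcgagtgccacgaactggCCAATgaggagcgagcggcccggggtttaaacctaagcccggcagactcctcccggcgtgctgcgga
Plk1, GRCm38.p6 chr7:122159285-122159434, plus strand: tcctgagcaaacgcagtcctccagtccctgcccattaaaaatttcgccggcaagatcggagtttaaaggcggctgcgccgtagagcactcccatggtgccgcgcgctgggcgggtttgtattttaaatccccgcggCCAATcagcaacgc
Hmgcs1, GRCm38.p6 chr13:119690201-119690350, plus strand: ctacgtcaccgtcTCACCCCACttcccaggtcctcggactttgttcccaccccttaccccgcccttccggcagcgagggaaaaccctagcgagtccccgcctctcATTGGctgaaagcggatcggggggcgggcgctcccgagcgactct
In *Uhrf1* the E2F core starts 48 bases and the CCAAT box 30 bases before the start site. *Ccnb1* holds CCAAT boxes at 99 and 67 bases before its start, *Plk1* at 14 bases, and *Hmgcs1* a sterol element at 137 bases and a CCAAT box at 45 bases. The promoter of *Cish*, the gene with the largest rise in the IL-4 list, is shown next to that of *Slc16a1*, the targeted gene, which was added after values were seen. The first holds a CCAAT box (as ATTGG) at 31 bases before its start and no STAT6 spacing in these 150 bases, and the other holds none of the motifs.
Cish, GRCm38.p6 chr9:107296509-107296658, plus strand: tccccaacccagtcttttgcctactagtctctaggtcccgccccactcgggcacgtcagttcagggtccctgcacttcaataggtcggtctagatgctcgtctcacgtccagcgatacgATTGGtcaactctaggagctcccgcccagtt
Slc16a1, GRCm38.p6 chr3:104638514-104638663, plus strand: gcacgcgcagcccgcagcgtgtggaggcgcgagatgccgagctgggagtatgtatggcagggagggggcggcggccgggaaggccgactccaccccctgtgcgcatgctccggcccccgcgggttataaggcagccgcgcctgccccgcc

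Secretory and stress genes and genes of survival followed. Of 24 genes of protein folding in the endoplasmic reticulum and the unfolded protein response 17 rose, with a median log2 change of 1.00. *Hspa5*, the chaperone BiP, had 191 and 202 FPKM on day 0 against 455, 440 and 441 FPKM on day 3, and *Sdf2l1* showed the largest rise, from 22.0 and 23.4 FPKM to 92.2 to 103 FPKM. Of 25 interferon-stimulated genes 17 rose and 2 fell (median log2 change 0.89). *Isg15*, a ubiquitin-like modifier, rose from 11.7 and 15.8 FPKM to 134 to 145 FPKM, whereas *Ifit3* fell from 16.5 and 24.1 FPKM to 3.46 to 4.16 FPKM. Of 14 genes of the BCL2 family 7 rose and 4 fell, next to 23.4% and 33.2% of all tested genes. *Bcl2l1*, which encodes the survival protein BCL-XL, had 5.0 and 4.36 FPKM on day 0 against 42.2, 41.0 and 42.9 FPKM on day 3, while *Bcl2* fell from 20.1 and 17.8 FPKM to 10.8 to 11.6 FPKM. *Bmf*, a pro-apoptotic member, fell from 17.6 and 15.9 FPKM to 1.96 to 2.33 FPKM. *Bcl2a1d* rose and *Bcl2a1a* fell, and these near-identical copies can share reads.

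The response of deficient cells was set against that of control cells by the interaction of genotype and day in the same fit. It was called in 350 of 10823 genes (3.23%), with 110 responses more positive (1.02%) and 240 more negative (2.22%) in deficient cells. Of the 240, 112 were genes that rose in deficient cells, 66 fell and 62 were not called, and of the 110 these numbers were 32, 56 and 22. The count at an unadjusted p under 0.05 was 2745. Y-linked *Ddx3y* was at 0.24 and 0.02 FPKM in the control day 0 libraries and at 14.7 and 16.5 FPKM in the control day 3 libraries. *Eif2s3y* was at 0.45 and 0.11 FPKM and at 59.2 and 62.3 FPKM in these libraries, and *Kdm5d* and *Uty* were also higher on day 3. The control days thus did not overlap in these Y-linked genes. The part of this in the differences cannot be told apart from that of the day and was not tested.

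The largest differences were those of *Il1r2*, *Batf3*, *Ido1*, *Gm40453* and *Ctla4* on the negative side. *Il1r2*, the decoy receptor of IL-1, had 5.94 and 3.77 FPKM on day 0 against 4.62, 3.81 and 4.45 FPKM on day 3 in deficient cells, and the days overlapped. In control cells it went from 2.40 and 5.82 FPKM to 20.1 and 17.8 FPKM. *Batf3*, an AP-1 factor, had 6.84 and 7.65 FPKM on day 0 and 4.51 to 6.56 FPKM on day 3 in deficient cells, and 25.2 and 28.8 FPKM on day 3 in control cells. *Ido1*, which degrades tryptophan, rose in deficient cells from 0.19 and 0.11 FPKM to 3.92 to 5.32 FPKM, and reached 23.3 and 23.2 FPKM in control cells. *Ctla4*, an inhibitory receptor, rose from 0.50 and 0.38 FPKM to 1.91 to 2.23 FPKM in deficient cells and reached 12.1 and 11.6 FPKM in control cells. The difference of *Gm40453* was not called in 5 of 20 alternatives (adjusted p from limma 0.0525 to 0.0883), among them the fits without either control day 3 library and the replicate block (0.0617). *Gm40453* was at 24.65 and 12.01 FPKM on day 0 in deficient cells and at 0.0 and 1.16 FPKM in control cells. On day 3 it was at 12.05 to 13.5 FPKM in deficient and at 3.91 and 3.5 FPKM in control cells. The genotypes of *Gm40453* thus did not overlap on day 0. *Il1r2*, *Batf3*, *Ido1* and *Ctla4* were named for the size of their difference in these libraries. Their deficient day 3 libraries lay below both control day 3 libraries, which is no added result.

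On the positive side stood *Gm45988*, *Mid1*, *Gm46353*, *Srp54b* and *Gm40378*, 3 of them predicted genes. *Mid1*, a ubiquitin ligase gene on the X chromosome, went from 10.6 and 13.9 FPKM to 22.0 to 23.98 FPKM in deficient cells, and from 5.0 and 26.4 FPKM to 3.26 and 3.5 FPKM in control cells. The control day 0 libraries of *Mid1* differed from each other by more than the deficient libraries did. The differences of *Mid1* and *Gm40378* were not called in 13 and 12 of 20 alternatives (adjusted p from limma 0.0518 to 0.157 and 0.0505 to 0.141), with 0.0627 and 0.0877 under the replicate block. *Srp54b* belongs to near-identical copies that can share reads. Of the activation genes described above, *Zbtb32* had a log2 change of 4.34 in deficient and 5.14 in control cells (difference -0.80, adjusted p = 0.00151), and *Klf2* fell by 2.26 in deficient and 3.42 in control cells (difference 1.16).

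By list, responses more negative in deficient cells were called in 6 of 25 interferon-stimulated genes and 5 of 14 cytokines and chemokines. They were also called in 4 of 13 activation receptors and 3 of 11 plasma cell genes, next to 2.22% of all tested genes. In the metabolic lists no difference was called in 20 glycolysis, 22 one-carbon and nucleotide and 23 cholesterol genes by limma, and 3, 3 and 2 of them had an unadjusted p under 0.05. Over all 10823 tested genes a difference was called in 3.23%, a share at which lists of this size can hold no call. An unadjusted p under 0.05 from limma was seen in 2745 of the 10823 genes. Among 35 mitosis genes 2 were called more negative, and 27 were more negative at an unadjusted p under 0.05. A difference that was not called is not shown to be absent.

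**Figure D5:**
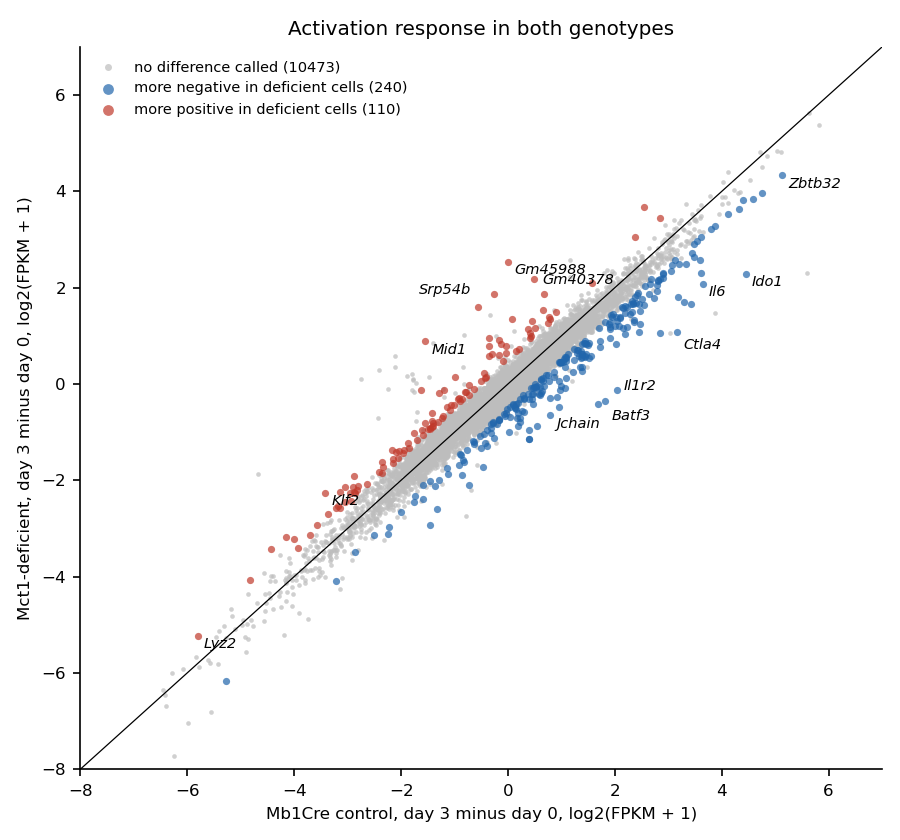
Change from day 0 to day 3 in log2(FPKM + 1) for each tested gene in *Mb1*Cre B cells (x axis) and *Mct1*-deficient B cells (y axis), with the diagonal marking equal responses. The 240 genes with a more negative response in deficient cells are blue and the 110 with a more positive response red, and labelled genes include *Ctla4*, *Batf3* and *Il1r2* below the diagonal and *Mid1* and *Klf2* above it.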

How the data were processed

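Per the labels and the study's methods, RNA of primary splenic B cells was sequenced in 9 libraries, and the deposited table gives FPKM per gene (2 decimals), which the authors scaled to gene length and library size. The submitters' processing notes name Bowtie2 and GRCm38/mm10. The counter and annotation are not given in the sources used here, so depth is unknown and no counting interval is given. Of 17596 genes, 84 were at 0 in all libraries.

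Values were tested as log2(FPKM + 1) with limma 3.58.1 in R 4.3.3, after removing genes that averaged under 1 FPKM across the 9 libraries, with 1 mean for each of 4 groups, a trended prior and Benjamini-Hochberg adjustment over all 10823 genes. The spread is shared by all 4 groups. The difference between genotypes was the interaction contrast. The permutation test of *Slc16a1* used scipy 1.17.1. Alternatives covered pseudocount, filter, scaling, replicate block, prior, fold limit and each library left out. Replicate numbers were not treated as pairs in the main fit.

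Named genes were *Slc16a1*, the 10 largest called rises and falls without overlap between days, the same among genes that averaged 10 FPKM or more outside the non-B-cell markers, in each list its first member and the 2 largest called rises and falls, the 5 largest interactions in each direction, the 5 genes with the highest mean on each day, and list genes named by the study. The members and lists were chosen with earlier results of these data known. Immunoglobulin genes were not analysed here, and some genes covered by the naming rule are not reported here.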

Additional observations from a re-analysis of the deposited data

Results flagged for a closer look

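The difference between the activation responses of *Mct1*-deficient and *Mb1*Cre B cells (deficient minus control, log2 scale) passed the interaction test of limma for 26 of the genes covered by the naming rule. Responses were more negative in deficient cells for *Il1r2* (-2.17), *Batf3* (-2.17), *Ido1* (-2.16), *Gm40453* (-2.10), *Ctla4* (-2.08), *Il6* (-1.56), *Jchain* (-1.44), *Slc16a1* (-1.06), *Hba-a1* (-0.913), *Cdkn1a* (-0.875), *Ifit1* (-0.837), *Bcl2a1d* (-0.832) and *Zbtb32* (-0.796). They were also more negative for *Fas* (-0.724), *Ebi3* (-0.702), *Klrd1* (-0.62), *Il2ra* (-0.587), *Isg15* (-0.581) and *Mzb1* (-0.553). Responses were more positive for *Lyz2* (0.573), *Klf2* (1.16), *Gm40378* (1.69), *Srp54b* (2.12), *Gm46353* (2.16), *Mid1* (2.44) and *Gm45988* (2.54). *Hba-a1*, *Klrd1* and *Lyz2* are markers of erythroid, NK and myeloid cells, and reads of *Srp54b* and *Bcl2a1d* can be shared with near-identical copies. As with *Srp54b* and *Gm40453*, the genotypes of *Jchain* did not overlap on day 0. *Jchain* was then at 159.9 and 117.3 FPKM in deficient and at 62.27 and 77.86 FPKM in control cells. Over 20 alternatives other than a log2 limit of 1, 18 of the 26 genes were called each time, 4 of them (*Ctla4*, *Gm45988*, *Gm46353* and *Il6*) over the 19 that kept the gene under the filter on low values. The call was lost in 13 for *Mid1*, 12 for *Gm40378*, 12 for *Lyz2*, 11 for *Klrd1*, 10 for *Isg15*, 5 for *Gm40453*, 2 for *Ifit1* and 1 for *Il2ra*. The 20 include the fit with no log2 limit, under which a call cannot be lost. With a log2 limit of 1 the call was lost for *Zbtb32*, *Hba-a1*, *Il2ra*, *Fas*, *Ebi3* and *Mzb1*. It was lost there as well for *Cdkn1a*, *Isg15*, *Ifit1*, *Bcl2a1d*, *Klrd1* and *Lyz2*. Under the replicate block the adjusted p from limma was 0.111 for *Lyz2*, 0.084 for *Klrd1* and 0.0669 for *Isg15*.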

How the results depend on the processing

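The rise of *Slc16a1* kept its direction and call in all 22 alternatives. With a pseudocount of 5, 43 responses were more positive and 113 more negative in deficient cells, and with a filter of 5 FPKM 157 were more negative. With a log2 limit of 1 there were 1200 rises and 1794 falls and 16 and 40 differing responses, and with no limit 3941 rises and 413 and 607 differing responses. Leaving out 1 library at a time gave 2489 to 2586 rises, 3560 to 3630 falls, 89 to 154 more positive and 174 to 293 more negative responses. *Pf4* (-0.583, adjusted p = 0.00686 from limma) and *Ddx3y* (-0.902, adjusted p = 2.29e-05 from limma) turned to falls without day 0 deficient library 2 and had changes of 1.18 and 3.84 without day 0 deficient library 1, and the cause was not tested. The labels do not say whether equal replicate numbers share a mouse. The correlation of deviations was 0.0533 and 0.0642 for the equal numbers in deficient cells. With 2 day 0 libraries their deviations mirror each other, so this cannot decide the pairing. With a replicate block there were 2516 rises, 3587 falls and 88 and 186 differing responses. Depth is unknown, so low values carry an error that cannot be given.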
